A study of Homo sapiens with 4 samples.

Results

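NF-κB subunits and a set of genes that NF-κB is known to control were described in HCT116 cells that lack 1 TCF binding element of the MYC 3′ enhancer. The 10 genes were taken by symbol from a deposited table of 57815 genes. They are 4 genes for subunits (NFKB1, NFKB2, RELA, RELB), 2 for feedback inhibitors (NFKBIA, TNFAIP3), 3 for chemokines (CXCL1, CXCL2, IL8) and the adhesion gene ICAM1. The rule names the genes by role and uses no measured value, but the members were chosen with earlier results of these data known. HCT116 is an established human colorectal carcinoma cell line. The 3′ WRE-Mut cells (the MYC 3' TBE1 knockout of the sample labels) are 1 clone in which Cas9 editing removed TBE1 from both alleles, and control cells are the parental, wild type population. TBE1 is a motif for TCF proteins in the Wnt-responsive DNA element (WRE) downstream of MYC. RNA was measured in 2 libraries of 3′ WRE-Mut cells and 2 libraries of control cells. Because both 3′ WRE-Mut libraries come from the same clone, the deletion and any other difference between that clone and its parents cannot be told apart. Levels are FPKM, fragments per kilobase of transcript scaled to the mapped fragments of the library.

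NF-κB is a dimer of Rel-family proteins that waits in the cytoplasm, held by inhibitors of the IκB family. In the canonical branch, receptors for TNF, IL-1 or microbial products activate the IKK kinase complex, which marks IκBα (encoded by NFKBIA) for degradation, and dimers of RELA and p50 (from NFKB1) enter the nucleus. In the non-canonical branch, receptors such as LTBR lead to processing of NFKB2 to p52, the partner of RELB. The dimers bind κB sites in target promoters, and among the targets are their own inhibitors NFKBIA and TNFAIP3 (the deubiquitinase A20), neutrophil-attracting chemokines and ICAM1, through which leukocytes adhere to epithelium.

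The κB-like stretches of the member promoters are shown because they place these genes side by side as sequences. RefSeq promoters of GRCh38.p14, each with 250 bases before and 50 bases from a transcript start, were searched on both strands for the κB consensus (10 bases, with degenerate positions) and for the exact word GGAATTTCC, and the matches of both patterns may overlap. The table held promoters for 9 of the 10 genes under their symbols (IL8 as CXCL8), with 13 promoter windows in all, because some genes have several starts. The consensus was found in 7 of these 13 windows and in 11.3% of all 35116 windows. GGAATTTCC was found in 6 of the 13 windows and in 0.461% of all windows, and 4 of the 13 held both. The members include genes chosen as known NF-κB targets, so higher shares than in all windows may follow from the choice. These shares are not read as a result, and windows of the same gene are not independent. By gene, 8 of 9 had a match of either kind, and RELA had none in its windows. Capitals mark the matched bases. Each line gives at most 30 bases, 5′ to 3′ on the strand of the gene.
NFKB1 (chr4:102501300-102501329, plus strand): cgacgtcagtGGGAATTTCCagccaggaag
NFKB2 (chr10:102394490-102394519, plus strand): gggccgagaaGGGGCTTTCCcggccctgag
NFKBIA (chr14:35404811-35404840, minus strand): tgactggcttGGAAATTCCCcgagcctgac
TNFAIP3 (chr6:137867188-137867217, plus strand): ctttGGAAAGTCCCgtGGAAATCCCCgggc
CXCL1 (chr4:73869305-73869333, plus strand): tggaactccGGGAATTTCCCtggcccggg
CXCL2 (chr4:74099254-74099282, minus strand): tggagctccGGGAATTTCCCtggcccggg
IL8 (chr4:73740468-73740496, plus strand): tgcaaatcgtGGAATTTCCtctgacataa
ICAM1 (chr19:10270924-10270952, plus strand): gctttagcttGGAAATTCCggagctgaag

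The stretch of TNFAIP3 holds 2 separate consensus matches, at 67 to 58 and 55 to 46 bases before the start. NFKB2 had 2 separate matched places in each of 2 windows, and its line shows 1 of these. IL8 and ICAM1 have the exact word, which for ICAM1 is read on the opposite strand, and no consensus match in these windows. The stretches of CXCL1 and CXCL2 differ at 1 of 29 bases. A match describes letters only, and binding was not measured in these libraries.

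The deposited table gave no read counts, so depth per library is unknown. Pearson's r of log2(FPKM + 1) over 11631 protein-coding genes, which are not independent replicates, was 0.965 between the 3′ WRE-Mut libraries, 0.981 between the control libraries and 0.901 to 0.950 between the groups. MYC served as a check of the labels and stood at 48.0 and 34.2 FPKM in 3′ WRE-Mut libraries, against 111 and 113 FPKM in control libraries. Epithelial markers were present (EPCAM at 146 and 179 FPKM in 3′ WRE-Mut, 183 and 217 FPKM in control), while CDX1 was listed at 0 and VIL1 was under 0.15 FPKM in every library. The summed level of the 10 epithelial markers was 1810 to 1920 FPKM in 3′ WRE-Mut and 2622 to 2865 FPKM in control. Of these, KRT18 fell (226 and 201 FPKM in 3′ WRE-Mut, 697 and 496 FPKM in control, limma adjusted p = 0.0237). Its merged locus covers 4 genes, among them KRT8, which did not pass (limma adjusted p = 0.448). CDX2 was at 4.64 and 1.35 FPKM in 3′ WRE-Mut and at 10.6 and 7.25 FPKM in control (limma adjusted p = 0.0639). CDH1 was at 49.5 and 73.0 FPKM in 3′ WRE-Mut and at 42.3 and 24.3 FPKM in control (limma adjusted p = 0.103). The 5 fibroblast markers summed to 21.4 and 29.1 FPKM in 3′ WRE-Mut and to 14.5 and 17.4 FPKM in control, nearly all of it COL1A1, and the other 4 were under 1 FPKM in every library. The 8 leukocyte markers summed to 70.5 to 72.3 FPKM in 3′ WRE-Mut and 41.1 to 42.9 FPKM in control. Nearly all of that was CD68, whose locus is merged with 14 other genes, and 6 of the 8 were under 1 FPKM in every library, with PTPRC at most 0.0610 FPKM and MS4A1 listed at 0. The part of these markers in the results was not tested. In bulk libraries, fewer cells that express a gene and less of its RNA per cell cannot be told apart.

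Among the 10 genes, TNFAIP3 was 4.03-fold higher and ICAM1 was 3.48-fold lower in 3′ WRE-Mut cells by group means, and the subunits, NFKBIA and the chemokines did not pass the test. The test took genes whose mean over the 4 libraries reached 1 FPKM. Of the 9 members that did, 1 rose and 1 fell by limma over protein-coding genes at an adjusted p under 0.05, the other 7 did not pass, and CXCL2 lay under the minimum. Over protein-coding genes as a whole, 4.02% were called higher and 4.31% lower, beside which 1 gene of 9 in each direction is a small count. Over all 14815 genes tested, which include very short RNAs, limma called 0.0877% higher and 0.101% lower, and none of the 9. There, before adjustment, p was under 0.05 for 1 of the 9 on the higher side and for 1 on the lower side, a share like the 22.2% of all tested genes. The groups did not overlap for 1 higher and 1 lower gene of the 9, against 30.9% of protein-coding genes without overlap on the higher side and 32% on the lower side. The median log2 fold change of the 9 genes was 0.07, beside −0.02 over protein-coding genes, whose quartiles were −0.44 and 0.40. With 2 libraries against 2, a single gene can reach no less than p = 0.333 in an exact permutation test, two-sided, so the calls rest on the variance that limma shares across genes. All log2 fold changes are 3′ WRE-Mut over control on log2(FPKM + 1), a scale that understates the change of low genes.

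**Figure D1:**
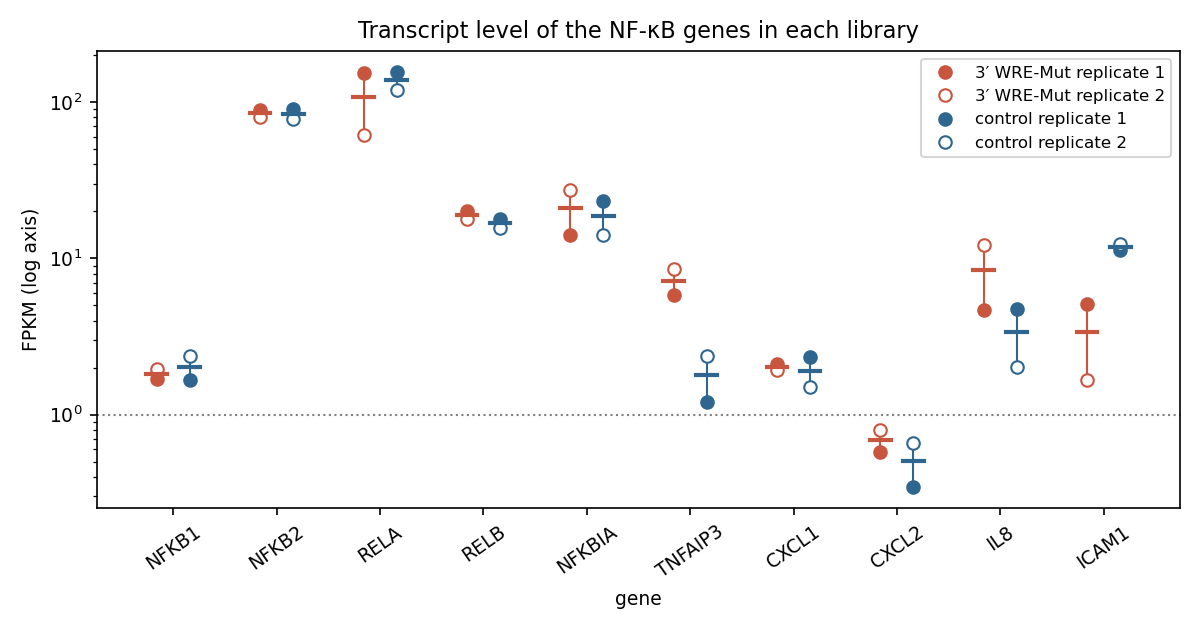
FPKM on a log axis for the 10 genes, with the 2 libraries of 3′ WRE-Mut (red, left) and of control (blue, right) as points and the group mean as a short bar. The dotted line is 1 FPKM, the minimum mean for testing, and only TNFAIP3 and ICAM1 show groups that do not overlap.

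The subunit genes covered a wide range of levels. RELA encodes p65, the subunit with the main transactivation domain of canonical dimers (hg19, chromosome 11, 65421067 to 65430565). It was at 154 and 61.8 FPKM in 3′ WRE-Mut libraries and at 157 and 119.5 FPKM in control libraries. Replicate 1 of 3′ WRE-Mut lay within the control range and replicate 2 lay below both control libraries, so the groups overlapped. The log2 fold change was −0.48 with a standard error of 0.39 (limma adjusted p = 0.430). It turned on 1 library, being −1.14 without 3′ WRE-Mut replicate 1 (limma adjusted p = 0.00119) and 0.17 without 3′ WRE-Mut replicate 2 (limma adjusted p = 0.745).

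NFKB2 encodes p100, the precursor of p52, and had its table row on chromosome 10 from 104153867 to 104162281. It stood at 88.6 and 80.6 FPKM in 3′ WRE-Mut and at 90.4 and 78.1 FPKM in control. Both 3′ WRE-Mut values lay between the control values, and the log2 fold change was 0.01 with a standard error of 0.23 (limma adjusted p = 0.984). RELB, its usual partner (chromosome 19, 45504688 to 45541452), measured 20.1 and 17.7 FPKM in 3′ WRE-Mut and 17.8 and 15.7 FPKM in control. The lower 3′ WRE-Mut library was just under the higher control library, and the log2 fold change of 0.16, standard error 0.24, did not pass (limma adjusted p = 0.676).

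NFKB1, which encodes p105 and p50, was the lowest of the 4 subunit genes (chromosome 4, 103422486 to 103538459). Its values were 1.68 and 1.97 FPKM in 3′ WRE-Mut and 1.66 and 2.38 FPKM in control, so the 3′ WRE-Mut libraries sat inside the control range. The log2 fold change was −0.09 with a standard error of 0.28 (limma adjusted p = 0.853). REL, the gene of c-Rel and the remaining subunit of the family, was not among the 10 and is given from the list of family subunits. It was at 2.03 and 4.11 FPKM in 3′ WRE-Mut and at 0.855 and 0.853 FPKM in control. Both 3′ WRE-Mut libraries were above both control libraries, as in 30.9% of protein-coding genes. The log2 fold change of 1.09, standard error 0.32, missed the threshold (limma adjusted p = 0.0664). REL had a control mean under 1 FPKM and reached the minimum only through its 3′ WRE-Mut values, so it is not read as a result.

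As shares of the summed FPKM of the 5 family genes, RELA made up 57.8 and 37.2% in 3′ WRE-Mut libraries and 58.6 and 55.2% in control libraries. NFKB2 made up 33.2 and 48.5% in 3′ WRE-Mut and 33.8 and 36.0% in control. REL stayed a minor part, with 0.762 and 2.47% in 3′ WRE-Mut and 0.319 and 0.394% in control. Replicate 2 of 3′ WRE-Mut had the lowest RELA share and the smallest sum, 166 FPKM, beside 267 FPKM in the other 3′ WRE-Mut library and 268 and 217 FPKM in control. NFKB2 itself was at 80.6 FPKM in replicate 2 of 3′ WRE-Mut, inside its control range, so its larger share there reflects the smaller sum. The authors' lower bound of RELA was 0 in all 4 libraries, so these shares are uncertain.

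The 2 inhibitor genes differed in their readings. NFKBIA is a direct NF-κB target that closes the main feedback loop (chromosome 14, 35870717 to 35873955). It was at 14.1 and 27.6 FPKM in 3′ WRE-Mut and at 23.3 and 14.1 FPKM in control. Both groups had 1 low and 1 high library and overlapped, the highest value being in 3′ WRE-Mut, with a log2 fold change of 0.12 and a standard error of 0.36 (limma adjusted p = 0.843).

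TNFAIP3 rose. It was at 5.79 and 8.54 FPKM in 3′ WRE-Mut libraries and at 1.20 and 2.36 FPKM in control libraries. Each 3′ WRE-Mut library was above each control library, with no overlap. The means were 7.17 ± 1.94 FPKM in 3′ WRE-Mut and 1.78 ± 0.824 FPKM in control (SD, n = 2 each), and the log2 fold change was 1.57 with a standard error of 0.33 (limma adjusted p = 0.0327 over protein-coding genes and 0.161 over all genes tested). The call was lost without control replicate 1 (limma adjusted p = 0.225), without control replicate 2 (0.101) and with no minimum level (0.2004). The table row of TNFAIP3 (chromosome 6, 138144810 to 138204449) is merged with the lncRNA RP11-356I2.4, which was under 0.14 FPKM in every library. By the distance between centred log2 levels over the 4 libraries, the protein-coding genes most like TNFAIP3 were CTD-3214H19.4, HIST1H2BJ (a histone H2B gene) and CRY1 (a circadian repressor). CTD-3214H19.4 lies at a merged locus of 5 genes. Over 4 libraries, such likeness describes only which libraries were high or low, and shared regulation was not tested.

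The chemokine genes lie close together on chromosome 4. IL8 encodes CXCL8, a strong attractant of neutrophils (74606223 to 74609433). It was at 4.68 and 12.1 FPKM in 3′ WRE-Mut and at 4.78 and 2.01 FPKM in control. Replicate 2 of 3′ WRE-Mut was the high one, and replicate 1 was within the control range. The means were 8.39 ± 5.25 FPKM in 3′ WRE-Mut and 3.39 ± 1.95 FPKM in control (SD, n = 2 each). The log2 fold change was 1.05 with a standard error of 0.45 and did not pass (limma adjusted p = 0.155). The log2 fold change was 1.65 without 3′ WRE-Mut replicate 1, where it passed (limma adjusted p = 0.000298), and 0.44 without 3′ WRE-Mut replicate 2 (0.434). It was 1.52 without control replicate 1 (0.209) and 0.58 without control replicate 2 (0.617).

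CXCL1, a ligand of the same receptor CXCR2, was at 2.12 and 1.93 FPKM in 3′ WRE-Mut and at 2.32 and 1.49 FPKM in control (74735110 to 74736959). The 3′ WRE-Mut libraries lay inside the control range, and the log2 fold change was 0.07 with a standard error of 0.29 (limma adjusted p = 0.884). CXCL2, its close paralog, was at 0.573 and 0.799 FPKM in 3′ WRE-Mut and at 0.344 and 0.661 FPKM in control (74962752 to 74965010). Its groups overlapped, and it was too low to be tested. Of the 50-base words in their annotated transcripts, 4.57% of those of CXCL1 and 13.4% of those of CXCL2 occur exactly in another of CXCL1, CXCL2, CXCL3 and IL8, so some single reads cannot be assigned between the paralogs. IL8 shared none.

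ICAM1 fell. Its values were 5.13 and 1.67 FPKM in 3′ WRE-Mut libraries and 11.3 and 12.3 FPKM in control libraries. Both 3′ WRE-Mut libraries were below both control libraries, which were close to each other. The means were 3.40 ± 2.45 FPKM in 3′ WRE-Mut and 11.8 ± 0.701 FPKM in control (SD, n = 2 each), and the log2 fold change was −1.66 with a standard error of 0.39 (limma adjusted p = 0.0410 over protein-coding genes and 0.171 over all genes tested). The call was lost without control replicate 1 (limma adjusted p = 0.164), without control replicate 2 (0.181), with a pseudocount of 0.1 (0.0562) and with no minimum level (0.225).

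The table row of ICAM1 (chromosome 19, 10362577 to 10399695) covers 6 genes at 1 merged locus, so overlapping transcripts may not be separated. MRPL4, a mitochondrial ribosomal protein gene of that locus, was at 42.9 and 41.0 FPKM in 3′ WRE-Mut and at 47.3 and 37.2 FPKM in control, and its groups overlapped (limma adjusted p = 0.998). ICAM4 was under 0.07 FPKM in every library. The lncRNA CTD-2369P2.8 of the same locus was at 0.471 and 0.411 FPKM in 3′ WRE-Mut and at 1.48 and 1.36 FPKM in control, lower in both 3′ WRE-Mut libraries like ICAM1, and too low to be tested. The other lncRNAs of the locus, CTD-2369P2.4 and CTD-2369P2.5, had groups that overlapped.

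**Figure D2:**
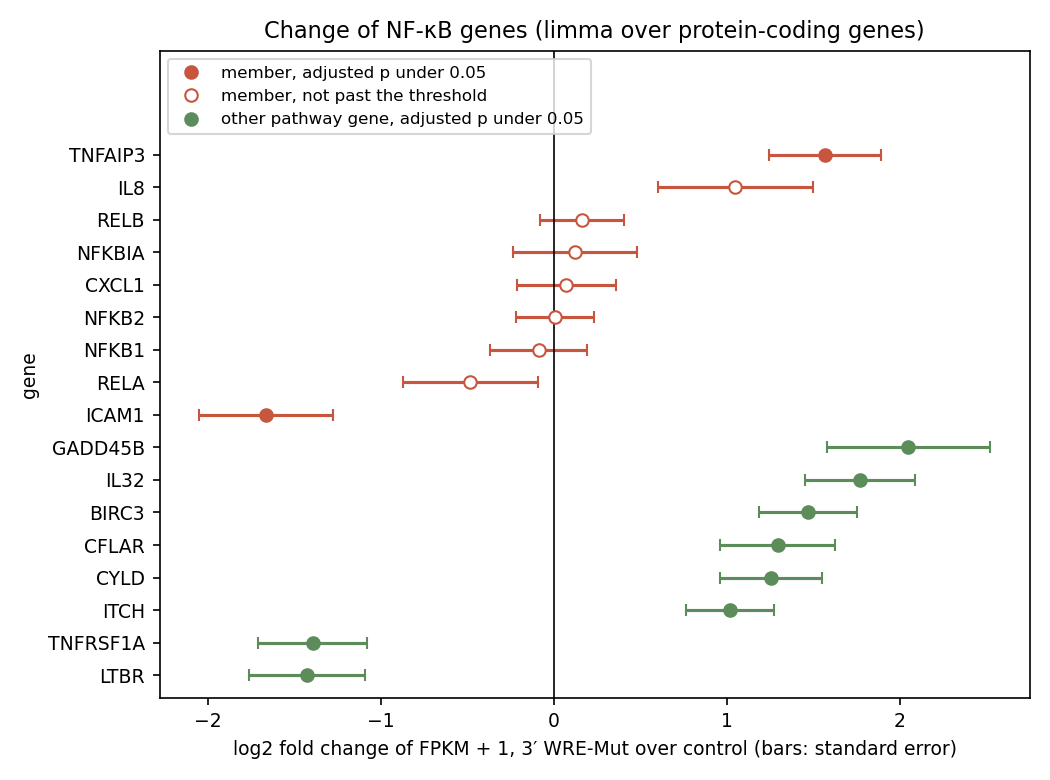
Log2 fold change of FPKM + 1, 3′ WRE-Mut over control, with standard errors as bars, for the 9 tested genes of the 10 (red) and for 8 other genes of the pathway lists that passed the test (green). Filled points passed the adjusted p threshold over protein-coding genes, and among the 9 these are TNFAIP3 at 1.57 and ICAM1 at −1.66. IL32, 1 of the 8, reached the minimum level only through 3′ WRE-Mut, so its call is not read as a result.

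The authors' lower and upper bounds on each FPKM value show how uncertain the single libraries were. For 5 of the 10 genes, the lower bound was 0 in at least 1 library. It was 0 in all 4 libraries for RELA, CXCL2 and ICAM1, in 3 for TNFAIP3 and in 1 for NFKBIA. Over the 4 pairs of a 3′ WRE-Mut and a control library, only IL8 had bounds that did not touch, in 1 pair. That pair was replicate 2 of 3′ WRE-Mut, with a lower bound of 5.37 FPKM, and replicate 2 of control, with an upper bound of 3.46 FPKM. TNFAIP3 and ICAM1 thus passed the test on their 4 values while their deposited bounds overlapped in every pair.

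**Figure D3:**
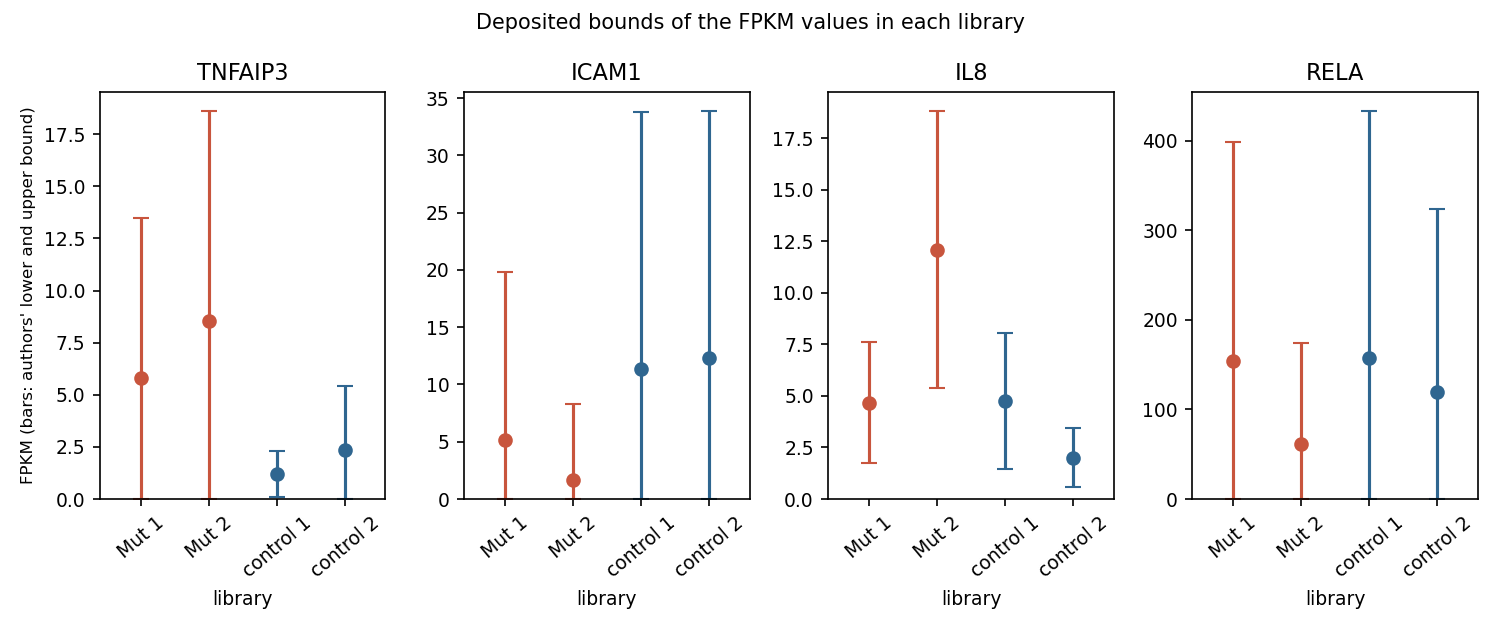
FPKM of TNFAIP3, ICAM1, IL8 and RELA in the 2 libraries of 3′ WRE-Mut (red) and of control (blue), with the authors' lower and upper bounds as bars on axes that start at 0. The bounds of ICAM1 and RELA reach 0 in all 4 libraries, and only for IL8 do the bounds of 1 pair of libraries stand apart.

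The order of the 10 levels, which FPKM puts per length of transcript, began alike in both groups. In 3′ WRE-Mut cells the order from high to low was RELA, NFKB2, NFKBIA, RELB, IL8, TNFAIP3, ICAM1, CXCL1, NFKB1 and CXCL2. Between neighbours, the ranges of the 2 libraries overlapped for RELA and NFKB2, for NFKBIA and RELB, and for IL8 and TNFAIP3. They also overlapped for ICAM1 and CXCL1 and for CXCL1 and NFKB1. The range of ICAM1 overlapped those of IL8 and NFKB1 too, so the order within all these pairs is not settled. In control cells it was RELA, NFKB2, NFKBIA, RELB, ICAM1, IL8, NFKB1, CXCL1, TNFAIP3 and CXCL2. There the ranges overlapped between NFKBIA and RELB, and between neighbours from IL8 down to TNFAIP3. TNFAIP3 stood at place 6 in 3′ WRE-Mut and at place 9 in control, and ICAM1 at place 7 in 3′ WRE-Mut and at place 5 in control.

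The rest of the pathway was read from 7 lists with 94 further genes, of which 65 could be tested over protein-coding genes. Of these, 6 rose and 2 fell, and 57 did not pass. The called share was 12.3%, beside 8.33% of all protein-coding genes tested (4.02% higher and 4.31% lower), and the counts for single lists stand against the same background. Over all genes tested, limma called none of 68 of them, and before adjustment p was under 0.05 there for 12 of the 68 on the higher side and for 6 on the lower side, beside 22.2% of all tested genes in either direction. The median log2 fold change of the 65 was 0.19. Among the 65, REL, CSF2, CXCL3, IL32 and PTGS2 had control means under 1 FPKM and reached the minimum only through 3′ WRE-Mut. TRAF5 reached it only through control. IL32 is 1 of the 6 that rose, so neither the called share nor the median of the 65 is read as a result. Outside the lists of receptors, feedback inhibitors and targets, no gene passed. This covered the 5 family subunits, the 6 tested IκB family genes and the 10 tested genes of the IKK complex and its upstream kinases. Before adjustment, p was under 0.05 for 1 family subunit, REL, and for 2 genes of the kinase list. All were on the higher side, beside 30.1% of protein-coding genes in either direction.

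Of the receptors and adaptors upstream of NF-κB, BIRC3 rose and the receptors TNFRSF1A and LTBR fell. BIRC3 (cIAP2), a ubiquitin ligase of TNF receptor complexes and an NF-κB target, was at 4.56 and 6.13 FPKM in 3′ WRE-Mut and at 1.22 and 1.33 FPKM in control. Its log2 fold change was 1.47 with a standard error of 0.28 (limma adjusted p = 0.0267). Its neighbour and paralog BIRC2 (cIAP1) was at 24.5 and 42.1 FPKM in 3′ WRE-Mut and at 14.0 and 17.1 FPKM in control, without overlap, and did not pass (limma adjusted p = 0.0674).

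TNFRSF1A, the main receptor for TNF, was at 45.4 and 23.1 FPKM in 3′ WRE-Mut and at 85.2 and 88.7 FPKM in control. The log2 fold change was −1.39 with a standard error of 0.31 (limma adjusted p = 0.0384). LTBR, the lymphotoxin β receptor of the non-canonical branch, lies beside TNFRSF1A on chromosome 12 and was at 36.1 and 17.4 FPKM in 3′ WRE-Mut and at 77.2 and 62.3 FPKM in control. Its fall was of like size (log2 fold change −1.43, standard error 0.34, limma adjusted p = 0.0415), at a locus merged with SCNN1A. Both receptors were lower in both 3′ WRE-Mut libraries, with replicate 2 the lower one. Of the 22 tested receptors and adaptors, 1 rose, 2 fell and 19 did not pass, and the median log2 fold change was −0.19.

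SHARPIN, a subunit of the linear ubiquitin ligase complex, was at 34.5 and 15.2 FPKM in 3′ WRE-Mut and at 63.2 and 55.9 FPKM in control, just short of the threshold (limma adjusted p = 0.0513). TRAF5, an adaptor of TNF receptors, was at 0.845 and 0.412 FPKM in 3′ WRE-Mut and at 2.32 and 2.13 FPKM in control (limma adjusted p = 0.0592). For both genes the 3′ WRE-Mut libraries lay below the control libraries. TAB3, an adaptor of the kinase TAK1, was at 6.49 and 7.85 FPKM in 3′ WRE-Mut and at 3.598 and 3.46 FPKM in control (limma adjusted p = 0.0802).

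Among the feedback inhibitors, 3 of 11 tested genes rose and none fell, beside 4.02% of protein-coding genes called higher. TNFAIP3 is 1 of the 3, and the median log2 fold change of the list was 0.51, beside −0.02 over protein-coding genes. The lists were chosen with earlier results of these data known, so neither this count nor this median is read as a result. CYLD, a deubiquitinase that removes the chains on which IKK is activated, was at 4.67 and 3.998 FPKM in 3′ WRE-Mut and at 1.65 and 0.876 FPKM in control. It rose, with a log2 fold change of 1.26 and a standard error of 0.30 (limma adjusted p = 0.0415). ITCH, a ubiquitin ligase that acts with A20, was at 21.7 and 24.8 FPKM in 3′ WRE-Mut and at 9.70 and 12.4 FPKM in control, and rose (log2 fold change 1.02, standard error 0.25, limma adjusted p = 0.0468). FAM105B, the linear deubiquitinase also named OTULIN, was at 6.40 and 12.4 FPKM in 3′ WRE-Mut and at 4.32 and 2.82 FPKM in control, without overlap, and did not pass (limma adjusted p = 0.0727).

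Among the chemokine and cytokine targets, 14 of 20 genes lay under a mean of 1 FPKM, and of the 6 tested, 1 rose and none fell. That gene was IL32, an inflammatory cytokine, at 4.47 and 7.05 FPKM in 3′ WRE-Mut and at 1.26 and 0.677 FPKM in control (log2 fold change 1.77, standard error 0.32, limma adjusted p = 0.0248). CSF2, which encodes GM-CSF, was at 0.816 and 5.11 FPKM in 3′ WRE-Mut and listed at 0 in both control libraries, and did not pass (limma adjusted p = 0.0596). CXCL3 was at 1.91 and 2.195 FPKM in 3′ WRE-Mut and at 1.16 and 0.282 FPKM in control (limma adjusted p = 0.111). IL32, CSF2 and CXCL3 had both 3′ WRE-Mut libraries above both control libraries, as did 30.9% of protein-coding genes. These 3 genes had control means under 1 FPKM and reached the minimum only through their 3′ WRE-Mut values. The call of IL32 and the count and median of this list are therefore not read as results.

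Among the adhesion, survival and other targets, 2 of 14 tested genes rose and 1 fell, which is ICAM1 itself, and the median log2 fold change was 0.08. GADD45B, a stress-induced protein that restrains JNK signalling, was at 78.2 and 241 FPKM in 3′ WRE-Mut and at 41.9 and 25.04 FPKM in control. It rose, with a log2 fold change of 2.05 and a standard error of 0.47 (limma adjusted p = 0.0404), and its 3′ WRE-Mut libraries were far apart. CFLAR (c-FLIP), which blocks caspase-8 at death receptors, was at 3.93 and 7.61 FPKM in 3′ WRE-Mut and at 1.48 and 1.85 FPKM in control (log2 fold change 1.29, standard error 0.33, limma adjusted p = 0.0487), and rose. The table rows of CYLD, ITCH, IL32 and CFLAR cover 4 to 7 genes each at merged loci.

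Among the 8 other pathway genes called, CFLAR, CYLD, GADD45B, ITCH, LTBR and TNFRSF1A lost their call with a pseudocount of 0.1. CFLAR and ITCH also lost theirs with median-ratio scaling, CFLAR with a pseudocount of 0.5 and ITCH with no variance trend. With no minimum level none of the 8 passed. Together with TNFAIP3 and ICAM1, the 8 make up the 10 called genes to which the next counts refer. IL32 is among them, although its call is not read as a result. With either control library left out, none of the 10 genes passed, and the limma adjusted p of the 8 ran from 0.0573 to 0.326 without control replicate 1 and from 0.131 to 0.291 without control replicate 2. All 10 kept their call without 3′ WRE-Mut replicate 1, and 9, not CFLAR, without 3′ WRE-Mut replicate 2. Leaving out a 3′ WRE-Mut library leaves the spread to the control pair alone. Replicate 2 of 3′ WRE-Mut lay farther from the control mean than replicate 1 for 9 of the 10 called genes, beside 85.3% of all 969 called protein-coding genes and 70.9% of all tested ones. Among the 9 tested members this held for 5.

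**Figure D4:**
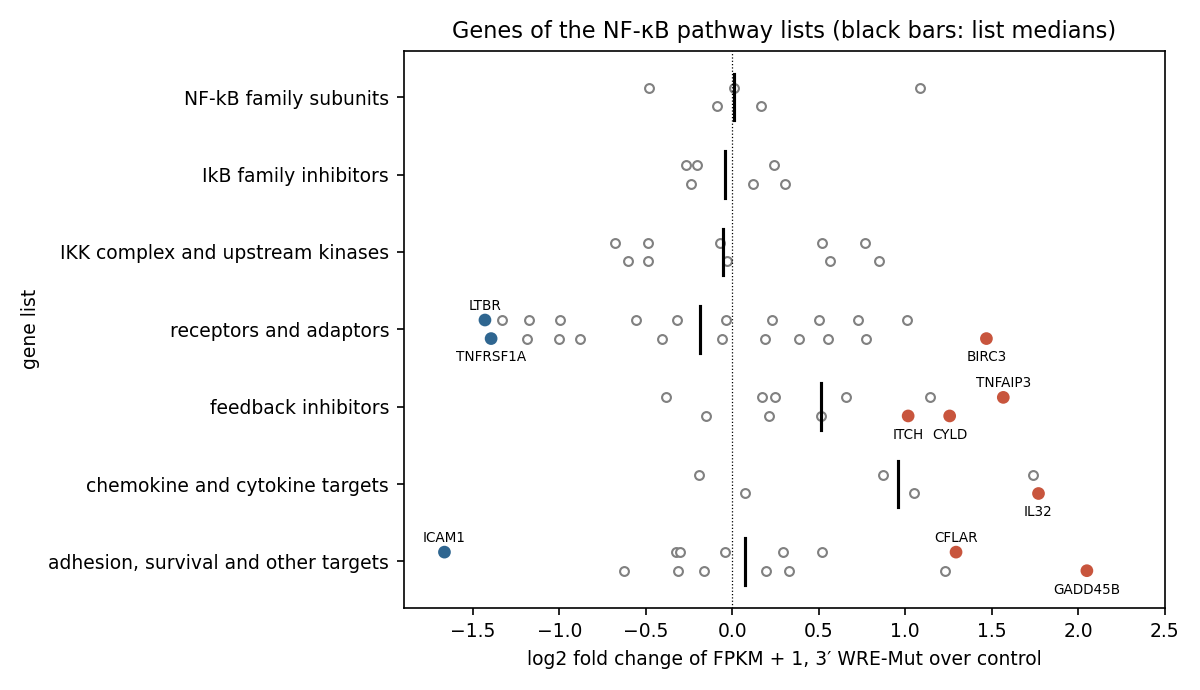
Log2 fold change of FPKM + 1, 3′ WRE-Mut over control, for each tested protein-coding gene of the 7 lists, with the list median as a black bar. Filled and named points passed the test (red higher, blue lower in 3′ WRE-Mut), and they lie in the 4 lower lists. In the list of chemokine and cytokine targets, 3 of the 6 genes reached the minimum level only through 3′ WRE-Mut, which raises its median.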

How the data were processed

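RNA-Seq of polyA RNA was analysed from 2 libraries of 3′ WRE-Mut and 2 of control HCT116 cells. Per the labels and the submitters' processing notes, the authors used CASAVA 1.8.2, aligned with TopHat2 2.0.9 (genome hg19) and produced the deposited FPKM values, with lower and upper bounds, with Cufflinks, named there as 2.2.1. Of the status fields, 11 marked failed estimates, none of them for a member. The authors' table of group comparisons (fold changes, p-values and q-values) was not used. No counts were used, so depth and its precision are unknown. Strand is not stated in the sources used here. Whether the replicates are separate cultures is given only as biological replicates of the same line or clone.

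In R 4.3.3, limma 3.58.1 (variance trend, two-sided, Benjamini-Hochberg, adjusted p under 0.05) was fitted by group to log2(FPKM + 1) for genes whose mean reached 1 FPKM, over all genes and over protein-coding genes. Gene types came from Gencode v44lift37 (55535 of 57815 genes matched), and 3 listed genes that passed the minimum had no type there (IKBKG, SOD2, OTUD7B). The fit was tested on simulated data. The members and lists were chosen with earlier results of these data known. Named were the members, MYC, list genes that passed and those of up to 3 more per list with the largest moderated t that the text needed, 3 genes nearest to TNFAIP3 and markers. Genes of merged loci, and genes that reached the minimum through 1 group only, were named after their values were seen. Python 3.11.15 and matplotlib 3.10.9 drew the figures. The alternatives were other pseudocounts, level minimums, scalings and variance models, a replicate block and leaving out each library.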

Additional observations from a re-analysis of the deposited data

How the results depend on the processing

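Over all tested genes no member was called under the setting used. Over protein-coding genes, 1 member was called higher, but 0 with no minimum, 0 with a mean of at least 5 FPKM, where TNFAIP3 was not tested, and 0 to 2 with 1 library left out. Lower members numbered 1, but 0 with a pseudocount of 0.1, 0 with no minimum and 0 to 2 with 1 library left out. Other pathway genes called higher numbered 6, but 3 with a pseudocount of 0.1, 0 with no minimum, 2 with a mean of at least 5 FPKM and 0 to 20 with 1 library left out. Those called lower numbered 2, but 0 with a pseudocount of 0.1, 0 with no minimum and 0 to 13 with 1 library left out. With a mean of at least 5 FPKM, BIRC3, CFLAR, CYLD and IL32 were not tested, and GADD45B and ITCH kept their calls. The 3 other pathway genes called higher with a pseudocount of 0.1 were BIRC3, IL32 and CSF2. CSF2 was not called under the setting used. With no minimum, 1 of 17782 protein-coding genes was called at all. Leaving out a control library leaves the spread to the 3′ WRE-Mut pair alone, and 76 and 82 protein-coding genes were then called, beside 4362 and 1290 without a 3′ WRE-Mut library and 969 in all. The median log2 fold change of the members ran from −0.10 to 0.25 with 1 library left out. Signs turned for members near 0. NFKB1 gave 0.13 and NFKB2 −0.14 with quantile normalization, and NFKB2 gave −0.012 with median-ratio scaling.

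With 1 library left out, the log2 fold change ran from −0.26 to 0.086 for NFKB1, from −0.10 to 0.11 for NFKB2, from −1.14 to 0.17 for RELA, from −0.34 to 0.58 for NFKBIA, from −0.14 to 0.28 for CXCL1 and from 0.44 to 1.65 for IL8. The cause was not tested. TNFAIP3 and ICAM1 kept their direction under every alternative run. Their groups did not overlap, so leaving out a library or taking another pseudocount could not have turned the sign. The replicate numbers name samples only. The difference of replicate 1 minus replicate 2 correlated at 0.111 between the groups, over 11631 protein-coding genes. With a replicate block, members called were 2 higher (IL8 in addition, limma adjusted p = 0.00386) and 1 lower, other pathway genes were 15 higher and 8 lower, and protein-coding genes called were 2862 in all. Unknown depth, 2 libraries a group and 1 clone limit each of these values.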
